A study of Homo sapiens with 60 samples.

Results

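The comparison described here set HepG2 cells exposed to the medium dose of a Coptidis Rhizoma extract against HepG2 cells that received only the solvent, dimethyl sulfoxide (DMSO). Its members were chosen by their labels. The 2 treated libraries were labelled ethanol extract of Coptidis Rhizoma at 56 µg/mL for 24 h, replicates 2 and 3. The 3 vehicle libraries were labelled DMSO, also for 24 h, replicates 1, 2 and 3. These 5 libraries were part of a series of 60 libraries in 25 groups, in which plant extracts used in East Asian medicine were each given to HepG2 cells at up to 3 doses. HepG2, a long-used line from a human liver tumour, still secretes albumin and apolipoproteins as hepatocytes do, and it was the only cell type used. The high dose of Coptidis, 280 µg/mL, was the concentration found to inhibit growth by 20%, and the medium and low doses, 56 and 11.2 µg/mL, were successive dilutions by a factor of 5. The sample labels give 0.1% DMSO for the vehicle, whereas the text on the series gives 2%. Whether the replicates were separate cultures is not stated in the labels, so the scatter behind the p-values may be technical. That scatter was estimated over 57 libraries of 22 groups of the series, not from these 5 libraries alone.

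Coptidis Rhizoma is the rhizome of Coptis plants, and its main alkaloid is berberine, a yellow isoquinoline that accumulates in mitochondria and is known to activate the aryl hydrocarbon receptor (AhR). AhR is a ligand-activated transcription factor of the liver that leaves its cytosolic chaperones on binding a ligand, enters the nucleus with its partner ARNT and switches on cytochrome P450 genes of the CYP1 family at DNA elements with the core GCGTG. Hepatocytes also answer foreign compounds and amino acid shortage through NRF2, which induces glutathione and thioredoxin genes, and through ATF4, which is translated when the kinases of the integrated stress response are active and binds C/EBP-ATF elements. Genes of mitosis are switched on late in each cell cycle through a short promoter element, the cell cycle homology region, with the letters TTTGAA.

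4 promoters are printed because their genes belong to groups that moved together and each holds the element named for its group. Each window runs from 250 bases before to 50 bases after the RefSeq start (build GRCh38.p14) and is written 5′ to 3′ on the gene's own strand, with the element in capitals. CYP1A1 lies at chr15:74725479-74725778 on the minus strand and AHRR at chr5:321464-321763 on the plus strand, and both show the AhR core GCGTG. ASNS lies at chr7:97872359-97872658 on the minus strand, and its capitals mark the ATF4 element. CCNB2 lies at chr15:59104896-59105195 on the plus strand, and its capitals mark the cell cycle homology region. ASNS and CCNB2 were chosen for display after their values were seen.
CYP1A1: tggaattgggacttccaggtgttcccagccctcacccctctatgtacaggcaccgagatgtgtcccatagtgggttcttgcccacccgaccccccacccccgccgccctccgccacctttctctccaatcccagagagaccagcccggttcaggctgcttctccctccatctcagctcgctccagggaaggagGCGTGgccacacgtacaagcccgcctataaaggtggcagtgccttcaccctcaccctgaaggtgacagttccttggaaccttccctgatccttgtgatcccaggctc
AHRR: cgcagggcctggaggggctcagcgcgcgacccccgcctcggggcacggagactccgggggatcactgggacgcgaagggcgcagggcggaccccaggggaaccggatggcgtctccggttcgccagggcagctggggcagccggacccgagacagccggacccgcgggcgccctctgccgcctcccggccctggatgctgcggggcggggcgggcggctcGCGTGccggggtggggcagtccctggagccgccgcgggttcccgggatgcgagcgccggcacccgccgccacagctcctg
ASNS: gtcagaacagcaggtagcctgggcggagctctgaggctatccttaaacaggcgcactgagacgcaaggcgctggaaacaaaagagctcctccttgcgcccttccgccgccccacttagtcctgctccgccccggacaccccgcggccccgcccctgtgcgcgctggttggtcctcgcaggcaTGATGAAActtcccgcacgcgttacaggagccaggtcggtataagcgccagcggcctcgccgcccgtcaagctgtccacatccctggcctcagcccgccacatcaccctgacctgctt
CCNB2: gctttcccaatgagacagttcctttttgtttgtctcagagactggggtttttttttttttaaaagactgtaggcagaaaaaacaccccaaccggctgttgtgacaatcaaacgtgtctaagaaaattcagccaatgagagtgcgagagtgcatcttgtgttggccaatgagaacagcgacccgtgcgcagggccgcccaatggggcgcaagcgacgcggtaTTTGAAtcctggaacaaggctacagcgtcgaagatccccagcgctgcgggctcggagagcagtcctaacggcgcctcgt
Each element was searched on both strands in the 27305 windows of the RefSeq table. GCGTG occurred in 36.3% of all windows and in 5 of the 6 AhR target genes that had a window. TGATGNAA, where N is any base, occurred in 3.67% of all windows and in 6 of 26 ATF4 targets, and TTTGAA in 15.4% of all windows and in 11 of 20 mitosis genes. TGACNNNGC, the core of the antioxidant response element bound by NRF2, occurred in 13.6% of all windows and in 3 of 14 NRF2 targets. TCACNCCAC, a sterol response element, occurred in 1.15% of all windows and in 0 of 15 cholesterol synthesis genes. A match is a description of these letters only, and a missing match says nothing about whether the factor binds.

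The libraries were directional, sequenced as read pairs of 100 bases, and deposited as estimated counts per gene. The Coptidis medium libraries held 23216322 and 24793574 counts, against 24070592, 22754471 and 20991532 counts in the vehicle libraries, within the range of 18015555 to 29549531 over the series. Expression is given below in counts-per-million (CPM) of each library. The liver markers ALB, AFP, APOA2 and FGB were detected in each library, and ALB, which encodes albumin, stood at 7904 and 8650 CPM in the Coptidis libraries, against 10580, 10770 and 11070 CPM in the vehicle libraries. Of the 15 markers of other cell types, PTPRC, CD3E, HBB, COL1A2 and DCN, of blood cells and fibroblasts, had 0 counts in these libraries. The list as a whole was not silent, and the markers that held most of its counts are not named here. Its markers together held 28342 and 38784 counts in the Coptidis libraries, against 33505, 32294 and 29527 counts in the vehicle libraries. Of the 8 tested markers of other cell types, 1 was called higher: CD68, a lysosomal protein best known from macrophages, with 65.6 and 49.0 CPM in the Coptidis libraries, against 31.2, 29.4 and 32.3 CPM in the vehicle libraries.

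3 properties of these libraries touch every result. First, the sample numbers in the titles begin with D1 for vehicle and with 11 for Coptidis, called sets here, so that the comparison with vehicle is also one between these sets, and treatment and set cannot be told apart. The titles give the batch letter D for vehicle, Coptidis and Zizyphi alike, whereas the descriptions give C for Coptidis and Zizyphi and D for vehicle. The 6 libraries of Zizyphi Fructus, another ethanol extract of a plant, carry the same number 11 and the same batch letter as Coptidis under either label. Numbers of members called against those 6 Zizyphi libraries are therefore given beside those against vehicle for most gene lists, with fold changes for some genes. Both comparisons use the same Coptidis libraries. Second, the 2 Coptidis medium libraries differed from each other more than other replicates did. Among 10698 genes with at least 5 CPM, 217 differed by 1.5-fold or more between them, against 16 to 36 in each other replicate pair of Coptidis, Zizyphi and vehicle. The difference, replicate 3 minus replicate 2, had a Spearman correlation across genes of -0.557 with GC content and -0.167 with transcript length, as a description of 10673 genes that are not independent. The other Coptidis and Zizyphi pairs showed such correlations too, between -0.288 and 0.534 with GC content and between -0.511 and -0.272 with transcript length. Last, 2 mitochondrial ribosomal RNAs took up a much larger share of the Coptidis libraries, as described with the mitochondrial genes.

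Many genes differed between Coptidis medium and vehicle, most of them by less than 2-fold. Of 16675 genes tested with the quasi-likelihood test of edgeR over 57 libraries, 8446 (50.7%) were called at an adjusted p below 0.05, 4351 of them higher (26.1%) and 4095 lower (24.6%) in Coptidis than in vehicle. Numbers of list members called below are to be read beside these 2 shares. The median absolute log2 fold change was 0.343 over all tested genes and 0.524 over the called ones. Changes of at least 2-fold were called for 1712 genes (10.3%), 1041 of them higher (6.24%) and 671 lower (4.02%). At 4-fold or more, 271 genes were higher (1.63%) and 87 lower (0.522%). Against the Zizyphi libraries of the same set, 8502 genes were called (51.0%), 4419 higher (26.5%) and 4083 lower (24.5%). The spread behind these calls was shared over the 57 libraries. The Coptidis medium pair scattered more than the other pairs described above, so the p-values can be too small for it. In a fit on the Coptidis medium and vehicle libraries alone, 7545 genes were called against vehicle. Without Coptidis replicate 2 the count against vehicle was 6500, and without replicate 3 it was 7990, where the single Coptidis library left is assumed to vary like the other groups. Because these are whole cultures, a lower level of an mRNA in every cell and a smaller number of cells that carry it cannot be told apart.

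**Figure D1:**
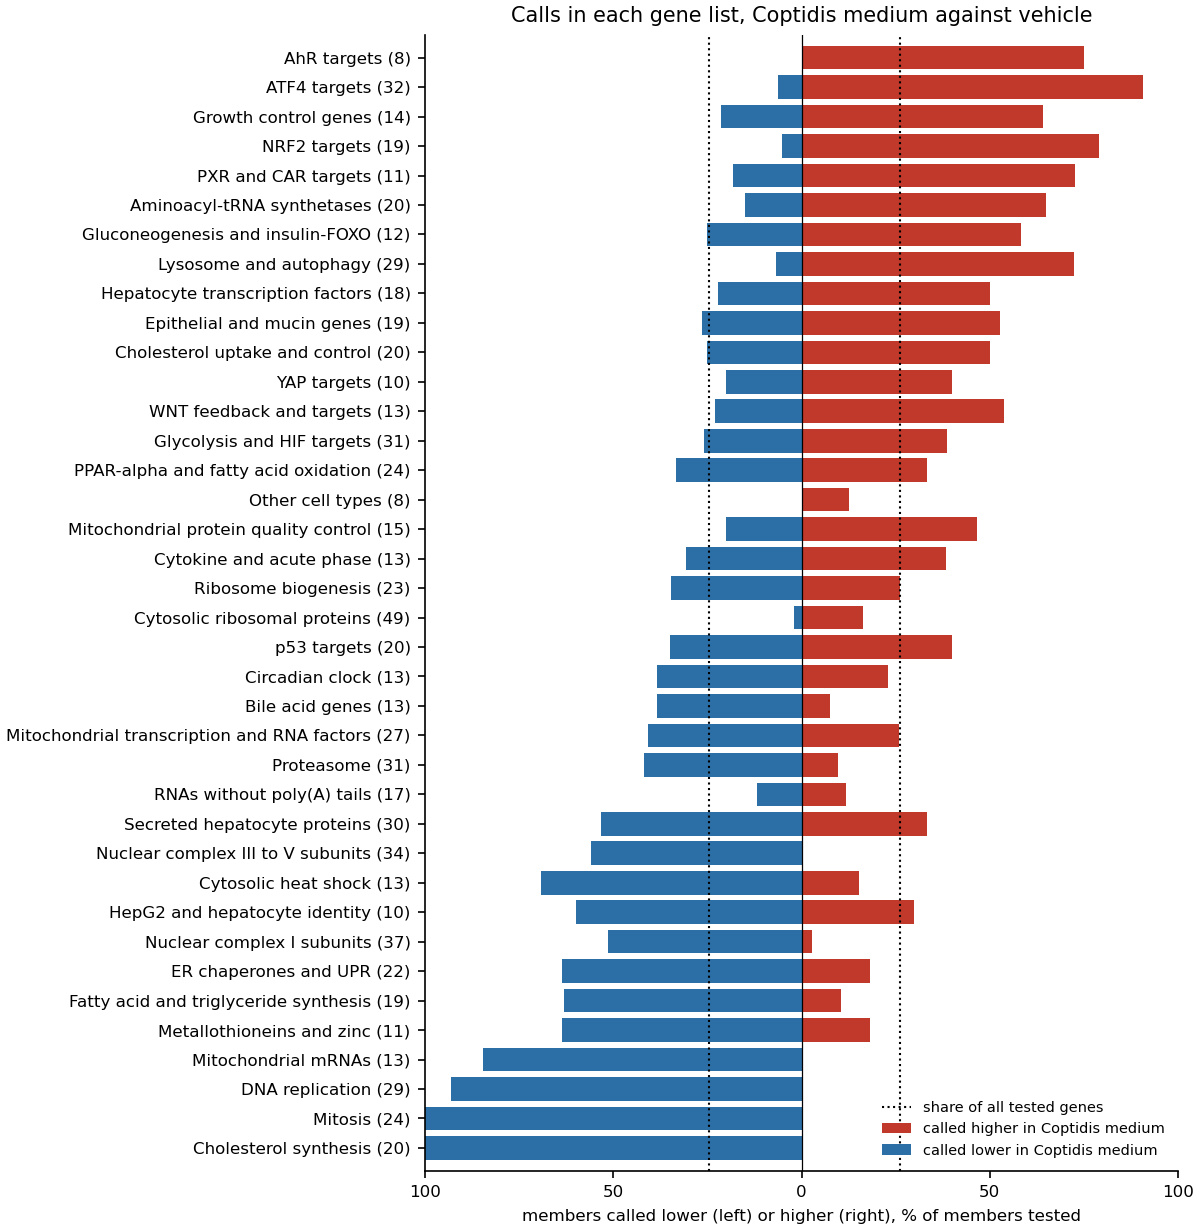
Share of the tested members of each gene list called higher (right, red) or lower (left, blue) in Coptidis medium than in vehicle, in percent of the tested members; dotted lines mark 26.1% higher and 24.6% lower over all 16675 tested genes. Cholesterol synthesis and mitosis reach 100% on the lower side, and AhR, NRF2 and ATF4 targets lie almost wholly on the higher side.

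The AhR target genes were among the most strongly raised. CYP1A1, a cytochrome P450 that oxidises aromatic hydrocarbons, stood at 1177 and 1249 CPM in the Coptidis libraries, against 12.6, 13.7 and 12.4 CPM in the vehicle libraries. Both Coptidis libraries were far above all vehicle libraries, and the groups did not overlap (log2 fold change 6.56 ± 0.14 SE, adjusted p = 8.17e-32). Against the same-set Zizyphi libraries its log2 fold change was 6.72. AHRR, the repressor that AhR induces to limit its own activity, stood at 11.1 and 9.15 CPM in the Coptidis libraries, against 0.291, 0.738 and 0.761 CPM in the vehicle libraries, again without overlap (log2 fold change 4.09 ± 0.19 SE, adjusted p = 2.18e-22). ALDH3A1, an aldehyde dehydrogenase of the same gene battery, stood at 7.41 and 6.79 CPM in the Coptidis libraries, against 0.457, 0.999 and 0.761 CPM in the vehicle libraries (log2 fold change 3.26 ± 0.22 SE, adjusted p = 3.13e-17). CYP1A2, the caffeine-metabolising neighbour of CYP1A1, had 188 counts in the 2 Coptidis libraries and 1 count in the 3 vehicle libraries, a ratio of 287 after scaling to library size, with an exact 95% counting interval of 51.0 to 11400. CYP1B1, the third enzyme of the family, was barely expressed, at 0.276 and 0.350 CPM in the Coptidis libraries, against 0.0416, 0.174 and 0 CPM in the vehicle libraries (log2 fold change 2.03 ± 0.75 SE, adjusted p = 0.0211), and lost its call when vehicle replicate 1, vehicle replicate 3 or Coptidis replicate 3 was left out. 6 of the 8 targets were called higher and none lower, with a median log2 fold change of 2.65 beside 0.0065 over all tested genes, and 6 were called higher against the Zizyphi libraries. Both Coptidis libraries lay above all vehicle libraries for each of the 8, as they did for 33.6% of all tested genes. UGT1A6, a glucuronosyltransferase below 1 CPM, and TIPARP, which ADP-ribosylates AhR, did not pass. UGT1A6 had a log2 fold change of 1.70 ± 1.15 SE, and TIPARP stood at 25.6 and 24.3 CPM in the Coptidis libraries, against 22.9, 22.8 and 22.9 CPM in the vehicle libraries, a log2 fold change of 0.13 ± 0.10 SE.

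The receptor and its partners moved unequally. AHR itself rose, with 105 and 95.5 CPM in the Coptidis libraries, against 44.5, 45.2 and 44.4 CPM in the vehicle libraries (log2 fold change 1.17 ± 0.08 SE, adjusted p = 2.36e-17). Of the complex that holds the unliganded receptor in the cytosol, HSP90AA1 fell by 0.80 and PTGES3, the co-chaperone p23, by 0.48 on the log2 scale. In all, 2 of 6 tested members of this list rose and 3 fell, beside 26.1% and 24.6% over all tested genes. Against the Zizyphi libraries 2 rose and 2 fell. ARNT, the nuclear partner, had a log2 fold change of 0.05 ± 0.09 SE and no call.

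NRF2 targets were raised broadly. 15 of 19 tested members rose and 1 fell, with a median log2 fold change of 0.814, and against the Zizyphi libraries 15 rose and 1 fell. All 5 members of the glutathione group and all 3 of a group of other targets were called higher. SLC7A11, the cystine importer that feeds glutathione synthesis, stood at 330.4 and 352 CPM in the Coptidis libraries, against 56.9, 56.9 and 53.6 CPM in the vehicle libraries, with the groups far apart (log2 fold change 2.61 ± 0.09 SE, adjusted p = 7.37e-27). SQSTM1, which encodes the autophagy receptor p62, stood at 849 and 791 CPM in the Coptidis libraries, against 228, 233 and 238 CPM in the vehicle libraries (log2 fold change 1.82 ± 0.05 SE, adjusted p = 1.86e-29). AKR1B10, an aldo-keto reductase, rose by 1.48 and SRXN1, which reactivates oxidised peroxiredoxins, by 1.40 on the log2 scale. HMOX1, heme oxygenase 1 and a widely used marker of NRF2 activity, went the other way. It stood at 39.2 and 40.2 CPM in the Coptidis libraries, against 56.7, 55.6 and 56.2 CPM in the vehicle libraries, so that both Coptidis libraries lay below all vehicle libraries (log2 fold change -0.50 ± 0.06 SE, adjusted p = 5.54e-09). At the high dose its log2 fold change against the same vehicle libraries was 0.92, and at the low dose -0.13. TXN, AKR1C2 and AKR1C3 had log2 fold changes of 0.30, -0.08 and 0.03 with no call. AKR1C2 and AKR1C3 are near copies of each other, so their reads can be divided between them. ME1 was too low to test.

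The list of ATF4 targets held more rises than any other list. 29 of 32 tested members rose and 2 fell, with a median log2 fold change of 1.20, and against the Zizyphi libraries 29 rose and 1 fell. All 6 transcription factors of the list, all 5 feedback genes and all 6 amino acid transporters were called higher. GDF15, a secreted stress hormone, stood at 1321 and 1163 CPM in the Coptidis libraries, against 135, 133 and 148 CPM in the vehicle libraries, without overlap (log2 fold change 3.16 ± 0.09 SE, adjusted p = 5.43e-29). DDIT3, which encodes the factor CHOP, stood at 26.9 and 31.4 CPM in the Coptidis libraries, against 13.2, 12.8 and 13.7 CPM in the vehicle libraries, and rose by 1.14 ± 0.12 SE on the log2 scale. VLDLR, a lipoprotein receptor that ATF4 induces, stood at 18.3 and 19.6 CPM in the Coptidis libraries, against 2.33, 2.35 and 3.04 CPM in the vehicle libraries (log2 fold change 2.88 ± 0.17 SE, adjusted p = 5.52e-19). CHAC1, which degrades glutathione, had 18 counts in the Coptidis libraries and 2 in the vehicle libraries, a ratio of 13.8 with a counting interval of 3.29 to 122. ASNS, asparagine synthetase, whose promoter is printed above, stood at 191 and 219 CPM in the Coptidis libraries, against 43.4, 43.1 and 44.4 CPM in the vehicle libraries (log2 fold change 2.23 ± 0.07 SE, adjusted p = 9.76e-30). CEBPB, a partner of ATF4, differed between the Coptidis replicates, with 94.6 and 61.9 CPM in the Coptidis libraries, against 20.3, 21.1 and 20.2 CPM in the vehicle libraries, and both were well above vehicle (log2 fold change 1.93 ± 0.18 SE, adjusted p = 6.04e-12).

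Among the 11 amino acid synthesis enzymes, 8 rose and 2 fell. ALDH18A1, which makes the proline precursor, fell to 178 and 174 CPM in the Coptidis libraries, against 320.3, 308 and 320.3 CPM in the vehicle libraries, a log2 fold change of -0.85 ± 0.04 SE. PSPH, the last enzyme of serine synthesis, fell by 0.20 on the log2 scale, and its call was lost without Coptidis replicate 2 and against the Zizyphi libraries. PHGDH, the first enzyme of serine synthesis, had a log2 fold change of 0.14 ± 0.07 SE and no call. FGF21, a secreted hormone and ATF4 target, was too low to test. The cytosolic aminoacyl-tRNA synthetases, which charge tRNAs and include several ATF4 targets, rose in 13 of 20 cases and fell in 3, against 15 and 1 relative to the Zizyphi libraries. CARS1, MARS1, GARS1 and SARS1, for cysteine, methionine, glycine and serine, had log2 fold changes of 1.25, 1.18, 1.11 and 1.08. RARS1, for arginine, fell by 0.19 on the log2 scale. That small fall lost its call without Coptidis replicate 2 and against the Zizyphi libraries, and its log2 fold change was 0.0713 with offsets for GC content and transcript length.

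**Figure D2:**
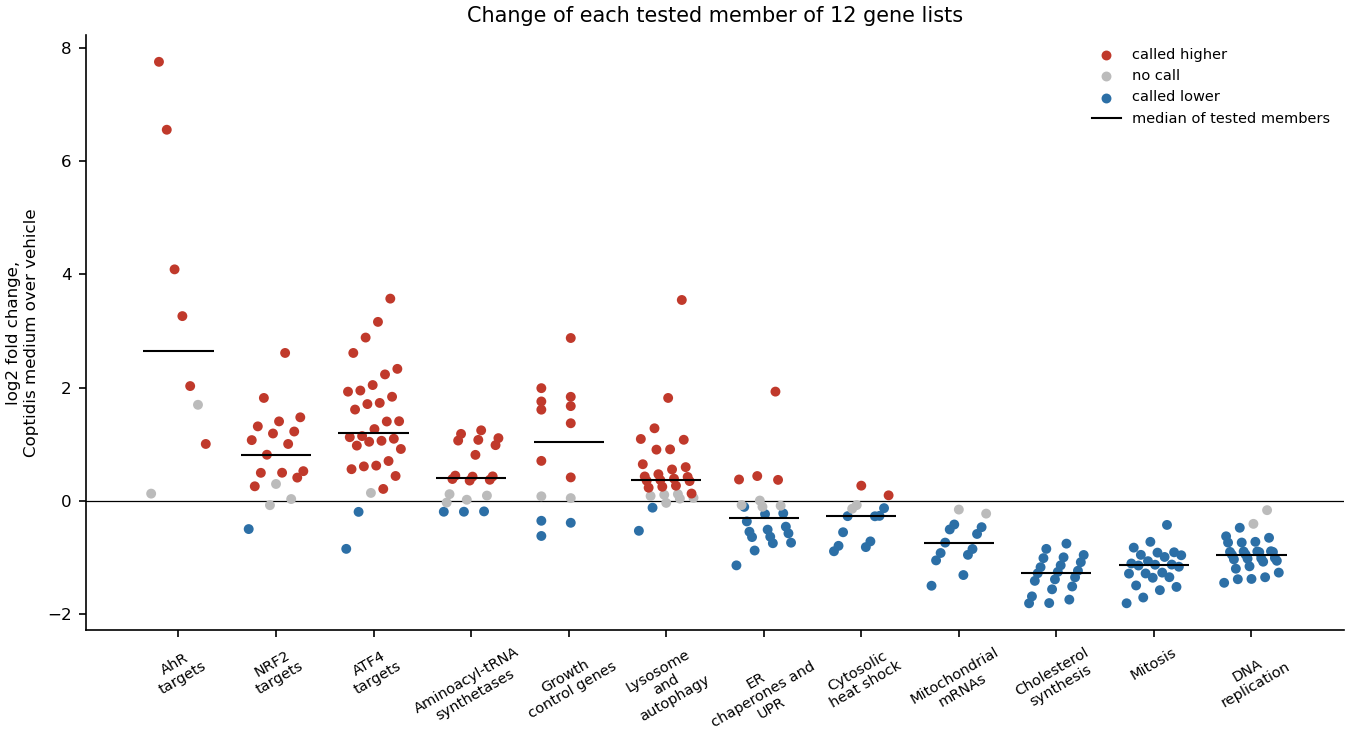
Log2 fold change of Coptidis medium over vehicle for each tested member of 12 gene lists, 1 point per gene, with the list median as a line. AhR targets reach 7.76 for CYP1A2, a value that rests on 1 count in the vehicle libraries, and all 24 mitosis genes and all 20 cholesterol synthesis genes lie below 0.

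Chaperones of the endoplasmic reticulum (ER) fell while ATF4 targets rose. Of 22 tested ER chaperones and genes of the unfolded protein response (UPR), 14 fell and 4 rose, with a median log2 fold change of -0.30. Against the Zizyphi libraries 14 fell and 5 rose. Of 11 chaperones 9 fell and none rose, and all 4 disulfide isomerases fell. HSPA5, the main ER chaperone BiP, stood at 849 and 899 CPM in the Coptidis libraries, against 1476, 1473 and 1457 CPM in the vehicle libraries, below all vehicle libraries (log2 fold change -0.75 ± 0.04 SE, adjusted p = 2.30e-21). CALR, the calcium-binding chaperone calreticulin, fell by 0.88 and MANF, a secreted ER protein, by 1.14 on the log2 scale. ERN1, the ER stress sensor IRE1, went the other way, with 58.4 and 55.8 CPM in the Coptidis libraries, against 14.8, 14.9 and 15.3 CPM in the vehicle libraries (log2 fold change 1.93 ± 0.08 SE, adjusted p = 5.34e-24). EDEM1, which directs misfolded proteins to degradation, rose by 0.44. HYOU1, DNAJB9, HERPUD1 and XBP1, all targets of the UPR, had log2 fold changes between -0.11 and 0.00 with no call. DNAJB9 was called higher against the Zizyphi libraries (log2 fold change 0.37), and XBP1 and HYOU1 lower (-0.22 and -0.13).

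Cytosolic heat shock genes fell as well, 9 of 13, and 2 rose, the same numbers as against the Zizyphi libraries. CHORDC1 and DNAJA1, co-chaperones of HSP90 and HSP70, fell by 0.89 and 0.82 on the log2 scale. HSPA1A, the inducible HSP70, stood at 90.6 and 92.9 CPM in the Coptidis libraries, against 154, 145 and 154 CPM in the vehicle libraries (log2 fold change -0.72 ± 0.09 SE, adjusted p = 1.65e-09), and it has a near copy in the genome whose reads can be divided with it. BAG3 and DNAJB1, also cochaperones, had small rises of 0.27 and 0.10, and both lost their calls without Coptidis replicate 2; DNAJB1 was called under 7 of 16 other settings.

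All 20 enzymes of cholesterol synthesis fell. Their log2 fold changes lay between -1.81 and -0.76, with a median of -1.27, and both Coptidis libraries lay below all vehicle libraries for each of the 20, a separation found in that direction for 31.6% of all tested genes. Against the Zizyphi libraries all 20 fell too. HMGCS1, an early enzyme of the mevalonate pathway, stood at 128 and 156 CPM in the Coptidis libraries, against 505, 505 and 484 CPM in the vehicle libraries, with no overlap (log2 fold change -1.81 ± 0.06 SE, adjusted p = 1.35e-28). ACAT2, which makes the acetoacetyl-CoA for the pathway, fell by 1.81 and IDI1, an isomerase further along it, by 1.69 on the log2 scale. The 8 enzymes of the mevalonate part had a median of -1.63 and the 12 of the sterol part -1.20. At the low dose the median over the 20 was -0.228 and at the high dose -2.20, each against the same vehicle libraries.

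Genes of cholesterol uptake, control and efflux did not follow the enzymes. Of 20 tested members 10 rose and 5 fell, against 9 and 6 relative to the Zizyphi libraries. STARD4, a carrier of cholesterol within cells, fell by 1.32. NR1H2, the oxysterol receptor LXR-beta, rose by 0.84. INSIG1, which holds the sterol sensor in the ER, had 1 count in the Coptidis libraries and 13 in the vehicle libraries, a ratio of 0.118 with a counting interval of 0.00277 to 0.783. Its call was lost with DESeq2, without vehicle replicate 1 and without Coptidis replicate 2 (adjusted p = 0.18). MYLIP, NPC1L1, INSIG2, MBTPS2 and ABCA1 did not pass, with log2 fold changes between -0.13 and 0.31.

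**Figure D3:**
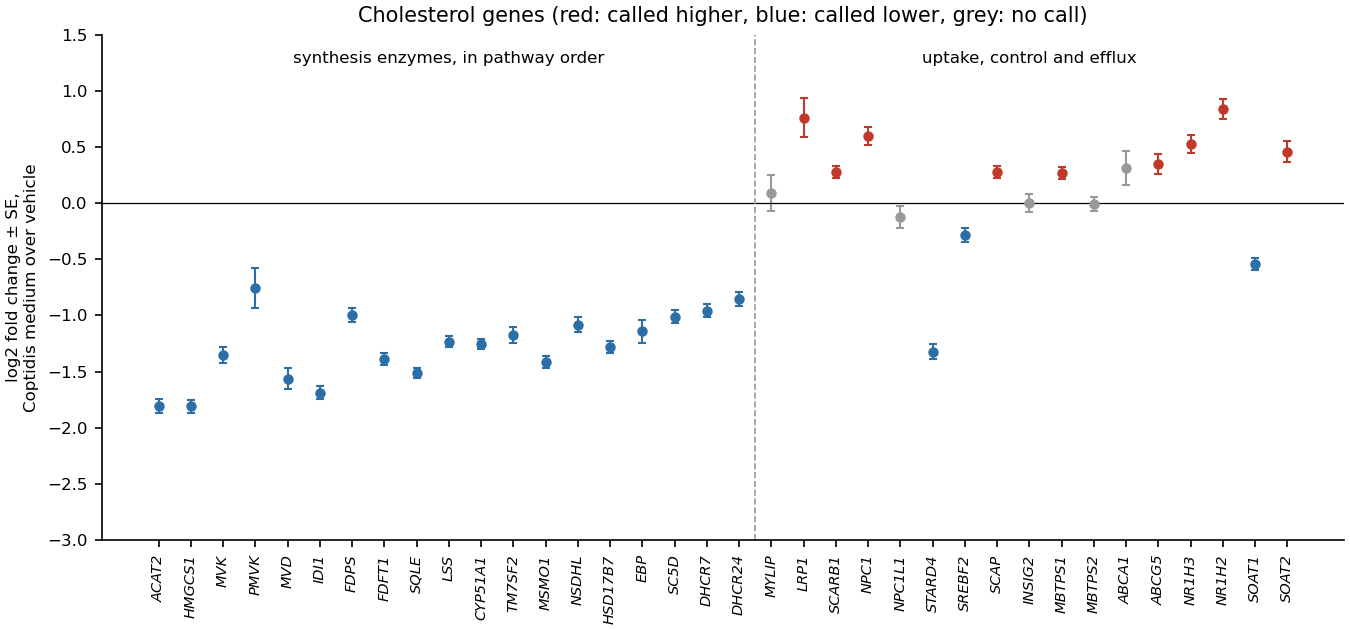
Log2 fold change (point) with its standard error (bar) of Coptidis medium over vehicle for enzymes of cholesterol synthesis and for genes of cholesterol uptake, control and efflux. The enzymes lie between -1.81 and -0.76, whereas NR1H2 lies at 0.84 and STARD4 at -1.32.

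Fatty acid and triglyceride genes fell in 12 of 19 cases and rose in 2, with a median log2 fold change of -0.304; against the Zizyphi libraries 14 fell and 1 rose. FADS2 and FADS1, the desaturases of polyunsaturated fatty acids, were among the larger falls. FADS2 stood at 61.8 and 62.1 CPM in the Coptidis libraries, against 215, 210 and 219.8 CPM in the vehicle libraries, with no overlap (log2 fold change -1.79 ± 0.05 SE, adjusted p = 1.25e-30), and FADS1 fell by 1.21 on the log2 scale. PNPLA3, a lipid droplet protein whose common variant predisposes to fatty liver, fell by 1.22, and DGAT1, which makes triglycerides, by 1.14. FASN, the fatty acid synthase, had a log2 fold change of -0.25 ± 0.12 SE and no call. SREBF1, the transcription factor of this pathway, stood at 84.5 and 60.9 CPM in the Coptidis libraries, against 59.5, 61.6 and 60.1 CPM in the vehicle libraries. Only Coptidis replicate 2 exceeded the vehicle libraries, and its small rise (log2 fold change 0.27 ± 0.08 SE, adjusted p = 0.00501) turned into a log2 fold change of -0.18 against the Zizyphi libraries and of -0.134 with the GC content and length offsets. AGPAT2, an acyltransferase, rose by 0.84 and lost its call without Coptidis replicate 2.

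Genes of fatty acid oxidation were split, with 8 of 24 rising and 8 falling, shares not far above the 26.1% and 24.6% over all tested genes; against the Zizyphi libraries 8 rose and 9 fell. PLIN2, which coats lipid droplets, stood at 244 and 254 CPM in the Coptidis libraries, against 124, 124 and 129.5 CPM in the vehicle libraries (log2 fold change 0.98 ± 0.05 SE, adjusted p = 9.15e-21), and CPT1A, which admits fatty acids to mitochondria, rose by 0.88. FABP1, the liver fatty acid binding protein, differed between the Coptidis libraries, with 16.4 and 36.8 CPM in the Coptidis libraries, against 79.8, 80.5 and 87.9 CPM in the vehicle libraries, and both lay below vehicle (log2 fold change -1.63 ± 0.16 SE, adjusted p = 6.53e-11; log2 fold change -2.35 without Coptidis replicate 3). PPARA, the receptor that controls these genes, had a log2 fold change of 0.15 ± 0.12 SE and no call.

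IGFBP1, a secreted protein that binds insulin-like growth factors and is repressed by insulin through FOXO factors, showed one of the largest rises of all. It stood at 1555 and 1476 CPM in the Coptidis libraries, against 38.4, 40.7 and 44.2 CPM in the vehicle libraries, with no overlap (log2 fold change 5.21 ± 0.16 SE, adjusted p = 9.62e-27). It is also a known target of ATF4 and AhR. Of 12 tested genes of gluconeogenesis and insulin-FOXO control, 7 rose and 3 fell, and against the Zizyphi libraries 8 rose and 3 fell. PC, pyruvate carboxylase, and IRS1, an insulin receptor substrate, had log2 fold changes of 1.13 ± 0.06 SE and 1.03 ± 0.13 SE. G6PC1, the catalytic subunit that releases glucose, stood at 5.43 and 5.48 CPM in the Coptidis libraries, against 2.04, 2.17 and 3.61 CPM in the vehicle libraries (log2 fold change 1.07 ± 0.19 SE, adjusted p = 5.62e-06), while SLC37A4, the transporter that works with it, fell by 0.86. SESN1, a FOXO and p53 target, fell by 0.92. IRS2 and TXNIP had log2 fold changes of 0.48 and 0.11 with no call.

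In glycolysis and among targets of the hypoxia factor HIF, 12 of 31 rose and 8 fell, with a median of 0.135, and against the Zizyphi libraries 13 rose and 6 fell. The 8 falls are near the 24.6% over all tested genes, of which 26.1% rose. PFKP, the platelet form of phosphofructokinase, stood at 20.1 and 18.9 CPM in the Coptidis libraries, against 3.99, 4.17 and 4.61 CPM in the vehicle libraries (log2 fold change 2.20 ± 0.09 SE, adjusted p = 2.45e-24). HK1 rose by 1.63 from a low level and VEGFA, which ATF4 induces as well, by 0.98. With offsets for GC content and transcript length the log2 fold change of VEGFA was 0.618. SLC2A3, a glucose transporter, fell by 0.95 and PFKFB4, which sets the pace of glycolysis, by 0.75.

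RNA from the mitochondrial genome changed in composition. The mitochondrial genome is read as long transcripts that are cut into 2 ribosomal RNAs, 13 mRNAs and tRNAs. The 2 ribosomal RNAs made up 10.2% and 11.5% of counts in the Coptidis libraries, against 2.61%, 2.47% and 2.49% in the vehicle libraries, with no overlap. The means were 10.9% ± 0.88 (SD, n = 2) in Coptidis and 2.52% ± 0.0761 (SD, n = 3) in vehicle, a ratio of 4.30. The exact two-sided permutation test gave p = 0.1, the smallest it can give with 2 libraries against 3. In the 6 Zizyphi libraries of the same set the share lay between 2.41% and 2.61%. The rise was already present at the low dose, with 11.8% and 11.6%, and was smaller at the high dose, with 5.41% and 5.68%. Within the counts of the mitochondrial genome, the ribosomal RNAs made up 72.2% ± 2.42 (SD, n = 2) in Coptidis and 26.0% ± 1.05 (SD, n = 3) in vehicle. MT-RNR1, the small ribosomal RNA, rose more than MT-RNR2, the large one, with log2 fold changes of 3.19 ± 0.09 SE and 1.89 ± 0.06 SE.

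The mitochondrial mRNAs went the opposite way. 11 of 13 fell and none rose, with a median log2 fold change of -0.739; against the Zizyphi libraries 9 fell, and with offsets for GC content and transcript length 7 fell. Their share of all counts was 4.17% ± 0.165 (SD, n = 2) in Coptidis and 7.21% ± 0.484 (SD, n = 3) in vehicle. MT-ND3, a complex I subunit, stood at 603 and 936 CPM in the Coptidis libraries, against 2250, 1989 and 2294 CPM in the vehicle libraries, far below vehicle (log2 fold change -1.50 ± 0.15 SE, adjusted p = 4.77e-11). MT-CO3, a subunit of cytochrome oxidase, stood at 3895 and 4496 CPM in the Coptidis libraries, against 9262, 8344 and 8518 CPM in the vehicle libraries (log2 fold change -1.05 ± 0.08 SE, adjusted p = 1.91e-14). MT-ATP8 and MT-ND4 fell by 1.31 and 0.95 on the log2 scale; the reading frames of MT-ATP8 and MT-ATP6 overlap on 1 transcript, so their reads can be divided. MT-ND1 and MT-ND5 had log2 fold changes of -0.16 and -0.23 with no call.

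**Figure D4:**
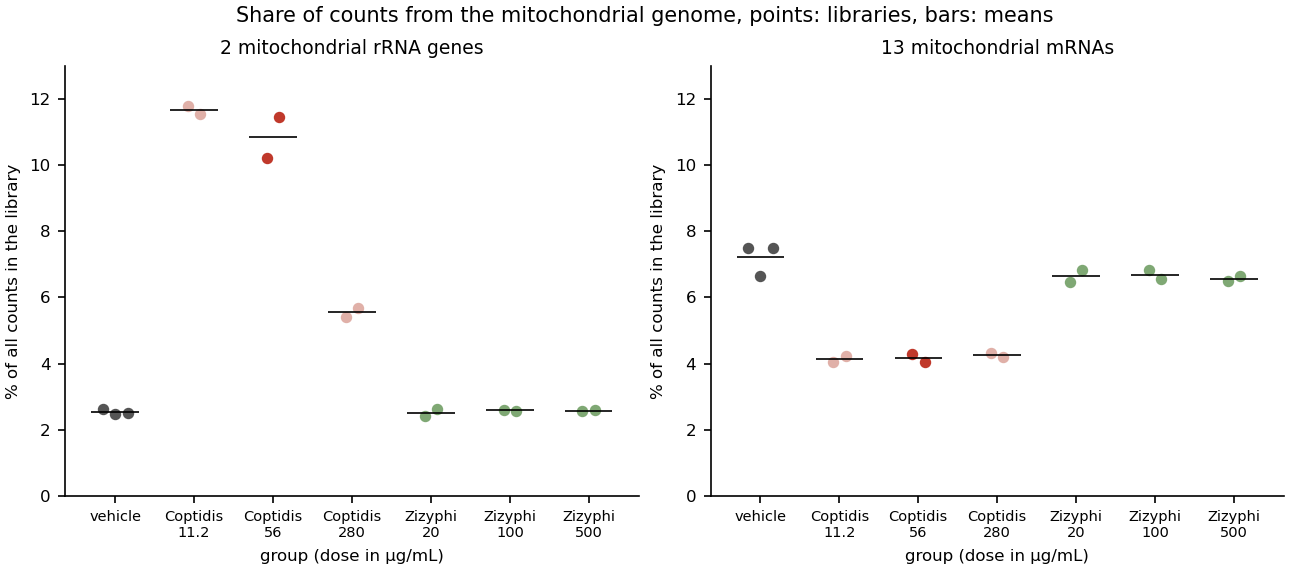
Share of each library's counts, in percent, from the 2 mitochondrial ribosomal RNAs and from the 13 mitochondrial mRNAs, 1 point per library, for vehicle, 3 Coptidis doses and 3 Zizyphi doses. The ribosomal RNA share lies at 10.2% and 11.5% at the medium Coptidis dose and between 2.41% and 2.61% in the Zizyphi libraries.

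Among the nuclear genes that serve mitochondria, the subunits of the respiratory chain were lower, but their counts depended on 1 library. Of 37 nuclear subunits of complex I, 19 fell and 1 rose, with a median of -0.298; of 34 subunits of complexes III to V, 19 fell and none rose, with a median of -0.263. Without Coptidis replicate 2 the falls numbered 9 and 6, and without replicate 3 they numbered 24 and 23. Against the Zizyphi libraries 18 and 22 fell. NDUFB1, an accessory subunit of complex I, stood at 8.61 and 17.4 CPM in the Coptidis libraries, against 27.7, 29.4 and 26.6 CPM in the vehicle libraries (log2 fold change -1.09 ± 0.19 SE, adjusted p = 4.00e-06; log2 fold change -1.71 without Coptidis replicate 3). NDUFA5 stood at 30.9 and 42.7 CPM in the Coptidis libraries, against 67.5, 66.7 and 61.6 CPM in the vehicle libraries, NDUFC1 at 27.7 and 41.3 CPM in the Coptidis libraries, against 60.5, 64.8 and 53.8 CPM in the vehicle libraries and UQCR10, of complex III, at 61.1 and 76.1 CPM in the Coptidis libraries, against 109, 108 and 108 CPM in the vehicle libraries, each below all vehicle libraries. ATP5F1E, ATP5ME, UQCRQ and NDUFB6 also fell, and each lost its call without Coptidis replicate 2. NDUFV1, a catalytic subunit, rose by 0.34, and that call was lost without replicate 3. Coptidis replicate 2 was the lower of the pair for NDUFB1, NDUFA5, NDUFC1 and UQCR10, and the part of that replicate difference in the counts was not tested.

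Of 27 tested factors of mitochondrial transcription, replication and RNA processing, 7 rose and 11 fell, and against the Zizyphi libraries 8 rose and 9 fell. Over all tested genes 26.1% rose and 24.6% fell against vehicle, so the 7 rises are near the general share. POLRMT, the mitochondrial RNA polymerase, stood at 117 and 92.7 CPM in the Coptidis libraries, against 60.8, 63.1 and 68.2 CPM in the vehicle libraries (log2 fold change 0.71 ± 0.08 SE, adjusted p = 9.71e-11). Its log2 fold change was 0.33 against the Zizyphi libraries, and 0.25 against vehicle with offsets for GC content and transcript length. SLIRP, which stabilises mitochondrial mRNAs, fell by 0.70, MGME1, a nuclease of mitochondrial DNA replication, by 0.69, and SSBP1, which binds single-stranded mitochondrial DNA, by 0.62, a call lost against the medium Zizyphi dose. TWNK, the helicase, rose by 0.29. Of 15 genes of mitochondrial protein quality control 7 rose and 3 fell, as many as against the Zizyphi libraries: CLPP and LONP1, the matrix proteases, rose by 0.70 and 0.54. DELE1, which relays mitochondrial stress to the integrated stress response, rose by 0.50, whereas EIF2AK1, the kinase HRI to which it binds, fell by 0.20. HSPE1, the co-chaperonin, stood at 185 and 323 CPM in the Coptidis libraries, against 461, 504 and 486 CPM in the vehicle libraries (log2 fold change -0.93 ± 0.14 SE, adjusted p = 4.41e-07).

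All 24 tested mitosis genes fell, with a median log2 fold change of -1.14, and all 24 fell against the Zizyphi libraries, without either Coptidis replicate and with every other setting tried. KIF20A, a kinesin of the dividing cell, stood at 22.5 and 22.5 CPM in the Coptidis libraries, against 77.9, 79.9 and 79.0 CPM in the vehicle libraries, with both Coptidis libraries alike and far below vehicle (log2 fold change -1.81 ± 0.08 SE, adjusted p = 8.74e-23). AURKB, the kinase of the chromosomal passenger complex, stood at 20.3 and 18.7 CPM in the Coptidis libraries, against 62.6, 65.6 and 62.6 CPM in the vehicle libraries (log2 fold change -1.71 ± 0.08 SE, adjusted p = 4.30e-22). CCNA2, cyclin A, fell by 1.52 and KIF11, the spindle kinesin, by 1.58 on the log2 scale. CCNB2, a B-type cyclin whose promoter is printed above, stood at 27.3 and 29.2 CPM in the Coptidis libraries, against 78.8, 69.4 and 69.3 CPM in the vehicle libraries (log2 fold change -1.36 ± 0.06 SE, adjusted p = 2.40e-22). The smallest fall of the list was -0.43 on the log2 scale. The kinases, the cyclins with their regulators and the spindle genes had median log2 fold changes of -1.13, -1.13 and -1.28.

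DNA replication genes fell in 27 of 29 cases and none rose, with a median of -0.951; against the Zizyphi libraries 28 fell. E2F8, a factor of the cycle itself, stood at 8.10 and 7.36 CPM in the Coptidis libraries, against 20.7, 22.7 and 19.9 CPM in the vehicle libraries (log2 fold change -1.45 ± 0.11 SE, adjusted p = 6.64e-15). GINS1 and GINS2, of the replicative helicase, fell by 1.39 and 1.38, and TK1, thymidine kinase, by 1.35. CDT1, which licenses origins, and CCNE2, a cyclin E, had log2 fold changes of -0.17 and -0.41 and no call. SKP2, which targets the inhibitor p27 for destruction, stood at 23.4 and 24.5 CPM in the Coptidis libraries, against 100.5, 100.2 and 99.8 CPM in the vehicle libraries, with tight replicates in both groups (log2 fold change -2.06 ± 0.05 SE, adjusted p = 3.68e-34). CDKN1B, which encodes p27, fell by 0.39. CDKN1A, which encodes the inhibitor p21, stood at 218 and 205 CPM in the Coptidis libraries, against 97.1, 95.3 and 93.3 CPM in the vehicle libraries, above all vehicle libraries (log2 fold change 1.15 ± 0.05 SE, adjusted p = 3.31e-23).

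The p53 targets as a group were divided, with 8 of 20 rising and 7 falling, and 10 rising and 6 falling against the Zizyphi libraries. PLK3 rose by 1.46 and PMAIP1, the apoptotic protein NOXA, by 1.06, but BTG2 fell by 0.73. MDM2, XPC, RRM2B, ZMAT3 and TIGAR, all p53 targets, had log2 fold changes between -0.20 and 0.13 with no call. All 7 immediate early genes rose. EGR1, a zinc finger factor induced by growth signals and stress, stood at 96.5 and 72.7 CPM in the Coptidis libraries, against 12.4, 10.8 and 11.3 CPM in the vehicle libraries (log2 fold change 2.88 ± 0.09 SE, adjusted p = 2.84e-29). JUNB stood at 26.1 and 21.3 CPM in the Coptidis libraries, against 5.61, 6.25 and 6.04 CPM in the vehicle libraries, IER3 at 259.9 and 226 CPM in the Coptidis libraries, against 68.7, 65.6 and 69.8 CPM in the vehicle libraries and FOS at 2.21 and 2.37 CPM in the Coptidis libraries, against 0.832, 0.565 and 0.618 CPM in the vehicle libraries, each with both Coptidis libraries above all vehicle libraries. CCND2, a cyclin near 1 CPM, fell by 0.62 and lost its call under several settings, including the comparison with Zizyphi.

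Of 30 tested proteins secreted by hepatocytes, 16 fell and 10 rose, and 16 fell and 8 rose against the Zizyphi libraries. The larger falls included the 3 fibrinogen chains FGA, FGB and FGG and HP, haptoglobin. FGG stood at 307 and 371 CPM in the Coptidis libraries, against 1135, 1025 and 1121 CPM in the vehicle libraries (log2 fold change -1.69 ± 0.07 SE, adjusted p = 3.57e-25), and FGA and FGB fell by 1.60 and 1.41 on the log2 scale. HP stood at 55.3 and 64.1 CPM in the Coptidis libraries, against 188, 191 and 189.7 CPM in the vehicle libraries (log2 fold change -1.67 ± 0.09 SE, adjusted p = 5.14e-20). APOC3, which slows clearance of triglyceride-rich particles, fell by 1.44, while ALB fell by 0.38 and AFP, the fetal albumin, by 0.60. The log2 fold change of ALB was -0.125 with offsets for GC content and transcript length. APOE and F7, coagulation factor VII, rose by 0.77 and 0.51. Without Coptidis replicate 3 the number of rises was 5. F9, coagulation factor IX, was among the members too low to test. Among the 10 markers used to check liver identity, 6 fell and 3 rose, APOA1 and TTR falling by 0.63 and 0.47, and APOA2 rising by 0.36, a call lost without Coptidis replicate 3.

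Hepatocyte transcription factors rose in 9 of 18 cases and fell in 4; against the Zizyphi libraries 8 rose and 4 fell. HNF4A, the master factor of hepatocyte identity, rose slightly, with 479 and 461 CPM in the Coptidis libraries, against 362, 350.2 and 368 CPM in the vehicle libraries (log2 fold change 0.38 ± 0.04 SE, adjusted p = 4.64e-10). NR1I2, the xenobiotic receptor PXR, rose by 0.84. ONECUT1, a factor of liver development, fell by 0.80 from few counts, a call lost without vehicle replicate 3 and without Coptidis replicate 3 (adjusted p = 0.195). NR1H4, the bile acid receptor FXR, fell to 22.2 and 27.3 CPM in the Coptidis libraries, against 75.2, 73.9 and 70.8 CPM in the vehicle libraries (log2 fold change -1.56 ± 0.08 SE, adjusted p = 6.13e-22). NR0B2, the repressor SHP that FXR induces, rose, with 107 and 101 CPM in the Coptidis libraries, against 43.2, 39.9 and 46.1 CPM in the vehicle libraries (log2 fold change 1.27 ± 0.09 SE, adjusted p = 1.50e-15). CYP7A1, the rate-limiting enzyme of bile acid synthesis, was below 1 CPM in all libraries and fell by 2.22, a call lost without Coptidis replicate 3 and against the medium Zizyphi dose; without Coptidis replicate 2 the log2 fold change was -3.74. AKR1D1, a reductase of the same pathway, fell by 1.63. In all, 5 of 13 tested bile acid genes fell and 1 rose, and 6 fell and 1 rose against the Zizyphi libraries.

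Genes induced through the receptors PXR and CAR rose in 8 of 11 tested cases and fell in 2; against the Zizyphi libraries 7 rose and 2 fell. CYP2B6, a hallmark CAR target, had 14 counts in the Coptidis libraries and 0 in the vehicle libraries, at least 7.13-fold higher with a floor of 3 counts over the vehicle group. UGT1A1, which conjugates bilirubin and is also an AhR target, stood at 1.75 and 2.02 CPM in the Coptidis libraries, against 0.249, 0.174 and 0.143 CPM in the vehicle libraries (log2 fold change 3.27 ± 0.51 SE, adjusted p = 5.62e-07); the UGT1A genes share exons, so reads can be divided among them. ABCC3 and ABCC2, exporters of conjugates, rose by 1.65 and 1.31. SULT2A1, a sulfotransferase, and CYP3A7, the fetal CYP3A enzyme, fell by 0.66 and 0.66, and the call of CYP3A7 was lost against the medium Zizyphi dose. CYP3A4, the main target of PXR, stood at 0.184 and 0.131 CPM in the Coptidis libraries, against 0.291, 0.347 and 0.380 CPM in the vehicle libraries and had no call.

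Lysosome and autophagy genes rose in 21 of 29 cases and fell in 2, with a median of 0.367; against the Zizyphi libraries 22 rose and 2 fell. Of 9 autophagy genes 8 rose. MAP1LC3B, the autophagosome protein LC3, stood at 208 and 216 CPM in the Coptidis libraries, against 99.0, 101 and 98.1 CPM in the vehicle libraries (log2 fold change 1.09 ± 0.05 SE, adjusted p = 1.60e-21), and its relative GABARAPL1 rose by 1.28. LIPA, the lysosomal lipase, fell by 0.53. ATP6V0D2, a proton pump subunit, had 10 counts in the Coptidis libraries and 1 in the vehicle libraries, a ratio of 15.3 with a counting interval of 2.18 to 664, and lost its call with DESeq2. ATP6V1A, another pump subunit, fell by 0.12 against vehicle but not against the Zizyphi libraries, and lost its call without Coptidis replicate 2 and without vehicle replicate 2. TFEB, the factor that controls this group, had a log2 fold change of 0.12 ± 0.11 SE and no call.

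Metallothioneins, small proteins that bind zinc and copper, split in a way that separated MT2A from its MT1 relatives. Of 7 metallothioneins 5 fell and 1 rose. MT1F stood at 9.90 and 10.8 CPM in the Coptidis libraries, against 57.6, 52.8 and 58.5 CPM in the vehicle libraries (log2 fold change -2.44 ± 0.13 SE, adjusted p = 2.92e-20), MT1X at 12.8 and 17.0 CPM in the Coptidis libraries, against 52.3, 55.2 and 60.9 CPM in the vehicle libraries and MT1G at 29.2 and 39.7 CPM in the Coptidis libraries, against 88.6, 87.9 and 115 CPM in the vehicle libraries, all below vehicle. The log2 fold change of MT1G against the Zizyphi libraries was -2.15. MT1M fell by 3.21 from below 2 CPM, with 7 counts in the Coptidis libraries and 102 in the vehicle libraries; its log2 fold change was -2.49 without Coptidis replicate 2 and -4.89 without replicate 3. MT2A stood at 781 and 971 CPM in the Coptidis libraries, against 382, 358 and 454 CPM in the vehicle libraries, above all vehicle libraries (log2 fold change 1.14 ± 0.11 SE, adjusted p = 1.39e-11). The copies are alike in sequence, so their reads can be divided. SLC39A10, a zinc importer, rose by 1.01.

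The machinery of protein synthesis and breakdown moved little, and its counts changed with the settings. Of 49 cytosolic ribosomal proteins 8 rose and 1 fell, with a median of 0.0173; against the Zizyphi libraries 4 rose and 1 fell. Without Coptidis replicate 3, 4 rose and 13 fell, and with offsets for GC content and length 22 rose and 2 fell. RPLP1 and RPL13 had log2 fold changes of 0.39 and 0.35 against vehicle, and of -0.06 and 0.17 against the Zizyphi libraries, where neither was called; both calls were also lost without vehicle replicate 1 and without Coptidis replicate 3, that of RPLP1 without vehicle replicate 2 or 3 and that of RPL13 without Coptidis replicate 2. RPL22 fell by 0.38, with 207 and 299.5 CPM in the Coptidis libraries, against 335, 338 and 313 CPM in the vehicle libraries, and lost its call without Coptidis replicate 2 (log2 fold change -0.14, adjusted p = 0.249) and in the fit on these 5 libraries alone. Of 23 ribosome biogenesis genes 6 rose and 8 fell, and against the Zizyphi libraries 8 rose and 7 fell. The 6 rises are near the 26.1% over all tested genes, of which 24.6% fell. RRP12 and BOP1 rose by 0.60 and 0.47, the call of BOP1 being lost against the medium Zizyphi dose, while FBL and NOP58, of the box C/D particles that methylate ribosomal RNA, fell by 0.51 and 0.48. Of 31 proteasome subunits 13 fell and 3 rose; without Coptidis replicate 2, 6 fell, and without replicate 3, 18 fell, and against the Zizyphi libraries 9 fell and 3 rose. PSMA6, a subunit of the core ring, stood at 275 and 354 CPM in the Coptidis libraries, against 491, 502 and 479.8 CPM in the vehicle libraries (log2 fold change -0.64 ± 0.09 SE, adjusted p = 9.31e-08), and PSMA2, PSMA3 and PSMA4 fell by 0.47, 0.46 and 0.45. The call of PSMA2 was lost without Coptidis replicate 2 (adjusted p = 0.281) and with offsets for GC content and length. PSMD2 and PSMD8, of the regulatory cap, rose by 0.38 and 0.35.

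Smaller lists of signalling and epithelial genes held a few large changes. AXL, a receptor kinase and YAP target, stood at 45.1 and 40.6 CPM in the Coptidis libraries, against 6.15, 5.91 and 6.46 CPM in the vehicle libraries, without overlap (log2 fold change 2.79 ± 0.10 SE, adjusted p = 3.06e-27). Of 10 YAP targets 4 rose and 2 fell; CCN1 and ANKRD1 rose by 1.56 and 1.00, and AMOTL2 and AJUBA fell by 0.52 and 0.14. The call of AJUBA was lost without Coptidis replicate 2 and without vehicle replicate 3, and against the Zizyphi libraries 5 YAP targets rose and 2 fell. DKK1, a secreted WNT inhibitor, stood at 39.0 and 39.6 CPM in the Coptidis libraries, against 111, 109.6 and 109 CPM in the vehicle libraries (log2 fold change -1.48 ± 0.08 SE, adjusted p = 1.97e-20), whereas TBX3 and NOTUM rose by 0.87 and 0.71. In all, 7 of 13 WNT genes rose and 3 fell against vehicle, and 5 rose and 5 fell against the Zizyphi libraries. LGR5, a WNT target receptor, fell by 0.33, and APCDD1, near 1 CPM, rose by 0.63, a call lost under 6 of 16 other settings, DESeq2 and leaving out Coptidis replicate 2 among them. ITGA2, a collagen receptor, stood at 356 and 357 CPM in the Coptidis libraries, against 84.5, 82.9 and 81.2 CPM in the vehicle libraries (log2 fold change 2.10 ± 0.16 SE, adjusted p = 2.31e-14). MUC5AC, a gel-forming mucin not typical of hepatocytes, stood at 4.74 and 2.80 CPM in the Coptidis libraries, against 0.0416, 0.0869 and 0.143 CPM in the vehicle libraries (log2 fold change 5.34 ± 0.39 SE, adjusted p = 6.89e-16). KRT23 rose by 0.96 and CLDN1, a tight junction protein, fell by 0.70, among 10 rises and 5 falls in 19 epithelial genes, against 9 and 6 relative to the Zizyphi libraries.

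Of 13 tested cytokine and acute phase genes 5 rose and 4 fell, and 8 more were too low to test. The numbers against the Zizyphi libraries were 5 and 3. RELB, ICAM1 and SOCS3 rose by 1.21, 0.64 and 0.90, and UBD and NFKBIA fell by 1.14 and 0.47 on the log2 scale. SOCS3 lost its call without Coptidis replicate 3 (adjusted p = 0.0926), without the filter on low counts and with offsets for GC content and length. Of 13 clock genes 3 rose and 5 fell, as many as against the Zizyphi libraries. The 3 rises are near the 26.1% over all tested genes, of which 24.6% fell. BHLHE40 and NR1D1 rose by 1.53 and 0.82, and DBP and BMAL1 fell by 0.94 and 0.78. Of 17 tested members of a list compiled as RNAs without poly(A) tails, 2 rose and 2 fell, and against the Zizyphi libraries 4 rose and 2 fell. Against vehicle the called members were all histone genes, and none of 6 small nuclear or nucleolar RNAs was called. Whether the counted histone transcripts carry tails was not tested. H2BC21 and H2AC6 rose by 0.73 and 0.64; H4C3 had 3 counts in the Coptidis libraries and 29 in the vehicle libraries, and H1-4 had 3 in the Coptidis libraries and 26 in the vehicle libraries; neither was called against the medium Zizyphi dose.

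The medium dose lay between the low and the high dose for CYP1A1, AQP3 and SKP2, 3 of the leading genes. CYP1A1 stood at 103 and 110.4 CPM at 11.2 µg/mL, 1177 and 1249 CPM at 56 µg/mL and 4686 and 4767 CPM at 280 µg/mL. AQP3 rose over the same steps, with 7.74 and 9.20 CPM at 11.2 µg/mL, 137 and 138 CPM at 56 µg/mL and 1345 and 1357 CPM at 280 µg/mL. SKP2 fell over them, with 67.1 and 66.0 CPM at 11.2 µg/mL, 23.4 and 24.5 CPM at 56 µg/mL and 8.27 and 7.69 CPM at 280 µg/mL. The replicates of neighbouring doses did not overlap for these 3 genes. Against the low dose, 4822 genes (28.9%) were called, 2446 higher (14.7%) and 2376 lower (14.2%) at the medium dose. The high dose differed from the medium dose in 8011 genes (48.0%), 4105 higher (24.6%) and 3906 lower (23.4%) at the high dose. All 24 mitosis genes were lower at the medium than at the low dose, and 23 of them were lower still at the high dose. These comparisons share the medium libraries.

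**Figure D5:**
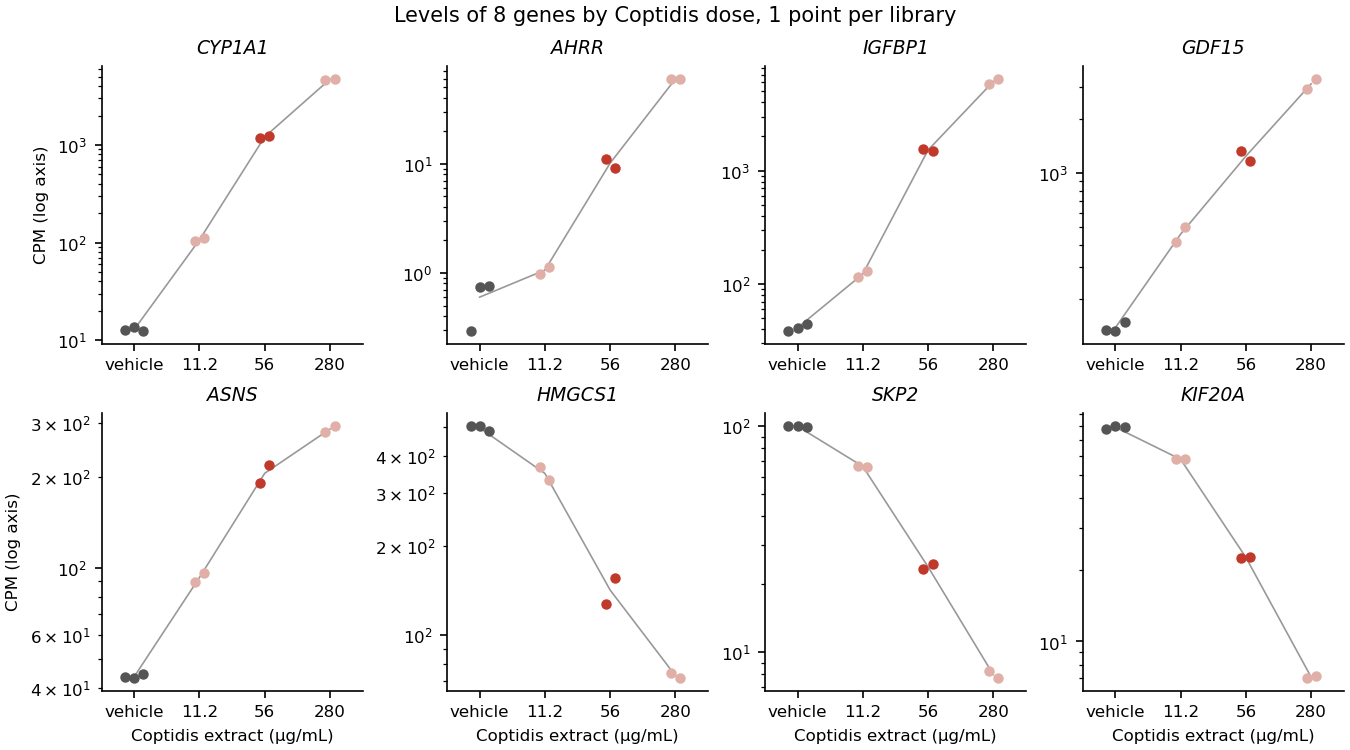
Expression in CPM (log axis) of CYP1A1, AHRR, IGFBP1, GDF15, ASNS, HMGCS1, SKP2 and KIF20A in vehicle and at 11.2, 56 and 280 µg/mL Coptidis, 1 point per library. CYP1A1 and IGFBP1 rise at each step, and SKP2 and KIF20A fall at each step.

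A contrast that set the medium dose against the midpoint of the low and high doses on the log2 scale asked which genes left a straight line over the doses. It called 2780 genes (16.7%), 1542 above the line (9.25%) and 1238 below (7.42%). The libraries were compared for called genes with a symbol and a mean of at least 5 CPM in a Coptidis group. Among these, both medium libraries exceeded all low and high dose libraries for 303 genes and lay under all of them for 254. Such separation was not counted over all tested genes. DEPP1, a FOXO target, stood at 42.7 and 44.1 CPM at the medium dose, against 26.3 and 32.2 CPM at the low and 7.70 and 6.30 CPM at the high dose. It lay 1.60 above the line on the log2 scale (adjusted p = 2.65e-19). G6PC1 stood at 5.43 and 5.48 CPM at the medium dose, against 2.08 and 1.78 CPM at the low and 2.93 and 2.20 CPM at the high dose (1.29 above the line, adjusted p = 8.14e-07). SLC17A2, TNFSF4, CPLX1 and IL10RB-DT lay 1.25, 1.17, 0.98 and 1.13 above it. The low dose libraries of IL10RB-DT differed, with 0.592 and 3.14 CPM; its departure lay between 0.81 and 2.01 under the other settings and was not called when only Coptidis, Zizyphi and vehicle libraries were fitted (adjusted p = 0.0844). Below the line, SLC6A12, a transporter of betaine, stood at 2.35 and 2.41 CPM at the medium dose, against 5.11 and 5.49 CPM at the low and 4.77 and 3.84 CPM at the high dose (adjusted p = 3.34e-07). LAMA3 and PFKFB4 also had their lowest levels at the medium dose, at -1.11 and -0.98 from the line. AADACP1, CDYL2 and RPPH1 lay -2.69, -1.79 and -1.77 from it, and each had no call against vehicle at the medium dose and its highest levels at the high dose.

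The 10 largest rises and 10 largest falls with at least 5 CPM, apart from those above, held several membrane and secreted proteins. They were picked among called genes without overlap between Coptidis and vehicle libraries and with a same-sign call against Zizyphi. Lack of overlap is therefore no further result for them. Over all tested genes, both Coptidis libraries lay above all vehicle libraries for 33.6% and below all for 31.6%. AQP3, a channel for water and glycerol, stood at 137 and 138 CPM in the Coptidis libraries, against 4.28, 4.26 and 3.90 CPM in the vehicle libraries (log2 fold change 5.05 ± 0.11 SE, adjusted p = 3.68e-34). OSCAR, an immune receptor of osteoclasts, stood at 7.46 and 5.26 CPM in the Coptidis libraries, against 0.0832, 0.0869 and 0.475 CPM in the vehicle libraries (log2 fold change 4.91 ± 0.37 SE, adjusted p = 2.00e-15; log2 fold change 6.14 without vehicle replicate 3). NPAS1, a transcription factor with the same kind of domain as AhR, stood at 26.1 and 17.6 CPM in the Coptidis libraries, against 0.749, 0.956 and 0.998 CPM in the vehicle libraries (log2 fold change 4.60 ± 0.21 SE, adjusted p = 9.02e-23). IGFBP3, a second binding protein of insulin-like growth factors, and ADRA1D, an adrenergic receptor, rose by 4.37 and 4.26; the log2 fold change of IGFBP3 was 5.33 against the Zizyphi libraries. 2 of the largest rises are uncertain. TUBA1B-AS1, an antisense RNA of a tubulin gene, had 13.5 and 0.175 CPM in the Coptidis libraries, against 0.166, 0.174 and 0 CPM in the vehicle libraries, so that 1 library decided its value, and without Coptidis replicate 2 it was not called. EIF3CL, a near copy of EIF3C with which it can divide its reads, had 359 and 85.7 CPM in the Coptidis libraries, against 11.4, 12.6 and 0.808 CPM in the vehicle libraries, and its log2 fold change was 4.72 against vehicle, 3.34 against vehicle without Coptidis replicate 2 and 2.24 against the Zizyphi libraries.

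GSTA1 and GSTA2, glutathione transferases of hepatocytes, were among the 10 largest falls. GSTA1 stood at 12.9 and 14.4 CPM in the Coptidis libraries, against 81.8, 83.5 and 80.2 CPM in the vehicle libraries (log2 fold change -2.58 ± 0.15 SE, adjusted p = 1.90e-18), and GSTA2 at 1.56 and 1.88 CPM in the Coptidis libraries, against 12.8, 13.9 and 12.4 CPM in the vehicle libraries (log2 fold change -2.92 ± 0.19 SE, adjusted p = 8.26e-18). The 2 are near copies, so their reads can be divided. LGALS2, a galectin, fell by 2.30, KNG1, the precursor of kinins, by 2.11, and the noncoding RNA LINC02413 by 2.11 on the log2 scale. 2 processed pseudogenes were among the falls, ACSL3P1 with -2.97 and PTMAP5 with -2.16, and their reads can come from the parent genes. The fall of PTMAP5 was -0.81 against the Zizyphi libraries, which themselves lay below the vehicle libraries for this gene.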

How the data were processed

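The authors deposited estimated counts per gene from RSEM for every library, and per the submitters' processing notes RSEM 1.3.3 and STAR 2.7.3a were used with build GRCh38, besides Trim Galore 0.6.5 and FastQC 0.11.9. For the annotation's release, the version is not given in the sources used. Of the deposited values 8.75% were not whole, and they were rounded. The table held 60675 genes, and 207 of its 267 columns belonged to no sample analysed here and were not used. Symbols were available for 41209 of the gene IDs, and positions from GENCODE release 29 for 57055.

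Counts were filtered with filterByExpr by group, which left out 44000 genes, scaled by TMM and fitted with edgeR 4.0.16 (quasi-likelihood, robust, R 4.3.3) over 57 libraries of 22 groups with replicates, with 35 residual degrees of freedom and a common biological coefficient of variation of 6.14%. Benjamini-Hochberg adjustment ran over 16675 genes, with calls at an adjusted p below 0.05. Standard errors are approximate: each is the size of the log2 fold change over the root of F. Fold changes of genes with few counts depend on the prior count, so ratios of counts with exact 95% intervals are given for them; intervals and floors cover counting error only. The procedure was tested on simulated data with known changes. Those data had the same dispersion for every gene and library, so the test does not cover the wider scatter of the Coptidis medium pair.

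The gene lists, of which 825 of 830 symbols matched, and the comparison itself were chosen with earlier results of these data known. Genes were named by a rule: a fixed panel; the 10 largest rises and falls with at least 5 CPM in 1 group, no overlap between libraries and a call of the same sign against the Zizyphi libraries; up to 4 called members of each list with the largest changes and up to 2 called against its majority; the 6 largest departures in each direction from the dose line; and members without a call. Some genes that the rule picks are not reported here. Promoter windows came from RefSeq, build GRCh38.p14. Alternatives were DESeq2 1.42.0, other scalings, filters, libraries and comparison groups.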

Additional observations from a re-analysis of the deposited data

How the results depend on the processing

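The count of 8446 genes called in Coptidis medium against vehicle lay between 7545 and 9349 under other settings that kept all libraries of both groups. DESeq2 gave 8111 and scaling by the DESeq2 method 8453. The fit without 1 Bupleuri low dose library, chosen because it stood apart in earlier results, gave 9349. With Zizyphi in place of vehicle, a different comparison, the count was 8502 against 3 doses and 7439 against the medium dose. Leaving out 1 library at a time gave 6500 to 7990 against vehicle, 6650 to 8345 against the Zizyphi libraries, 3492 to 4454 against the low dose, 6695 to 7371 for high against medium and 2245 to 2464 off the dose line; where it left 1 library in a group, that library was assumed to vary like the other groups. The difference in ribosomal RNA share was 8.33 percentage points of all counts, 7.71 to 8.95 with 1 library left out, and 46.2 points as a share of mitochondrial genome counts, a different denominator. These totals over all genes, in the 5 comparisons, stayed within 1.5 times of their main value under the settings run, but numbers of list members called did not: over lists, directions and settings 28 values moved by more with 1 library left out and 59 under other settings.

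Deviations of same-numbered Coptidis medium and vehicle libraries correlated at -0.153 and -0.181 over 11027 genes. The deviations of the 2 Coptidis libraries mirror each other, so these values are not independent. They do not decide whether the numbers pair Coptidis medium and vehicle libraries. With the other libraries whose numbers begin with 11 the correlation was -0.0726 for the low and 0.306 for the high Coptidis dose and 0.605, 0.157 and 0.383 for the low, medium and high Zizyphi doses; with 2 libraries a group this gives a single value a pair of groups, which does not decide whether the numbers pair them. With the replicate block the counts were 8528 against vehicle, 8532 against Zizyphi, 4873 against the low dose, 8074 for high against medium and 2836 off the dose line.

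Among named genes, directions turned in 8 of the combinations of gene and setting. With offsets for GC content and length, SREBF1 was at -0.134 and RARS1 at 0.0713 on the log2 scale. Against the Zizyphi libraries of 3 doses SREBF1 was at -0.177, ATP6V1A at 3.93e-05 and RPLP1 at -0.0606; against the medium Zizyphi dose they were at -0.174, 0.0155 and -0.0617. The cause was not tested. Calls were lost in 50 combinations under other settings, and in further ones with 1 Coptidis or vehicle library left out. Falls of respiratory chain, proteasome and ribosomal protein genes depended on the Coptidis replicate kept, as given with those lists; with GC and length offsets 8 proteasome subunits fell and 9 rose. Few counts limit what can be said of CYP1A2, CYP1B1, CHAC1, INSIG1, CYP2B6, ATP6V0D2, H4C3 and H1-4.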

Other observations

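Calls were not spread evenly over kinds of genes. Of 13132 tested protein-coding genes 29.6% were higher and 27.8% lower in Coptidis medium than in vehicle. Antisense genes reached 12.5% in each direction among 1087 tested, and long intergenic noncoding RNAs 13.1% higher and 14.5% lower among 710 tested. Of 509 processed pseudogenes 12.8% were higher and 9.23% lower, and reads of these can come from their parent genes. The level of expression, which sets how small a change can be called, was not matched between these kinds. Across 16560 genes the log2 fold change had a Spearman correlation of 0.257 with GC content and 0.0925 with transcript length, as a description over genes that are not independent.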
